A study of Homo sapiens with 8 samples.

Results

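The transcripts described here encode the regulators and feedback genes of the ATF4-CHOP stress response: ATF4, ATF5, DDIT3 (which encodes CHOP), DDIT4, TRIB3, CHAC1, CEBPB, CEBPG, SESN2 and PPP1R15A. The members were listed by name, and each was read from every probe set to which the platform annotation gives that symbol and no other. All 10 genes had such a probe set, 18 of the 44988 probe sets that carry 1 gene symbol and 10 of the 18132 genes they represent. Expression was measured in H1299 on 8 one-colour Affymetrix arrays, from total RNA and with biotin as the label. H1299 is a long-established line from a human lung carcinoma of the non-small cell type, known to lack p53 protein. Per the labels, a short hairpin RNA transfection that targeted USF1, an E-box binding transcription factor, was compared with a control for that knockdown, with 3 arrays in each group. A transfection of the same kind that targeted UGT1A3, a glucuronosyltransferase, was compared with a control of its own, with 1 array in each group. The labels do not say what the control cells received or how many hairpins were used, and all arrays come from 1 cell line.

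The integrated stress response starts when kinases that sense missing amino acids, misfolded protein, viral RNA or mitochondrial and haem stress phosphorylate the initiation factor eIF2. General translation then slows while the ATF4 messenger is translated better, and ATF4 switches on genes for amino acid uptake, amino acid synthesis and tRNA charging, often at composite sites bound together with C/EBP proteins. Under lasting stress ATF4 raises CHOP, which is tied to cell death, and also genes that restrain the response, among them TRIB3, which binds ATF4, and PPP1R15A, which recruits the phosphatase that removes the phosphate from eIF2. DDIT4 and SESN2 restrain the growth kinase complex mTORC1, and CHAC1 degrades glutathione.

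As 8 of the 10 genes fell in the same comparison, the promoter sequences of members are shown where they hold a motif of this pathway or of the targeted factor. RefSeq promoter windows of assembly GRCh38.p14, from 250 bases before to 50 bases after each annotated transcript start, covered all 10 members with 18 windows. Both strands were searched for CACGTG (the E-box that USF factors bind), TGATGNAA (the core of the composite C/EBP-ATF element), TGACGTCA (the palindromic cAMP response element, a site of the wider ATF and CREB family) and the ER stress response element. CACGTG was in the windows of 1 member, ATF4, and in those of 8.77% of all 27305 genes (7.26% of 35116 windows). TGATGNAA was in windows of 2 members, CEBPG and CHAC1, and in those of 4.46% of all genes (3.62% of windows). TGACGTCA was in the window of 1 member, PPP1R15A, and in those of 2.25% of all genes (1.85% of windows). The ER stress response element was in none of the member windows and in those of 0.0916% of all genes (0.0769% of windows). No 2 of the member matches overlap. The bases before the start are printed 5′ to 3′ on the plus strand, with the motif in capitals, at chr22:39520309-39520558 for ATF4, chr15:40953221-40953470 for CHAC1 and chr19:48872171-48872420 for PPP1R15A. In CEBPG the match lies before the second annotated start, and only its 28 bases at chr19:33374061-33374088 are shown.
ATF4: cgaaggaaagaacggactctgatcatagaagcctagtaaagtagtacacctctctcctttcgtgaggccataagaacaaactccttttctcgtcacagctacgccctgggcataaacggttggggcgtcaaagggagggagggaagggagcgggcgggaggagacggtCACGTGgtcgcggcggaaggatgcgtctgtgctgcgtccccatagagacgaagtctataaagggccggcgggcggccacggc
CHAC1: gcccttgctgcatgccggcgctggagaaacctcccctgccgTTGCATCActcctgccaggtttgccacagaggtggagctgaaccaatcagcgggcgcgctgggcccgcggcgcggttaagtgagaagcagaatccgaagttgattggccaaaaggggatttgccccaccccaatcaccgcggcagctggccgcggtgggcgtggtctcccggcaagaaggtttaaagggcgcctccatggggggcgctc
PPP1R15A: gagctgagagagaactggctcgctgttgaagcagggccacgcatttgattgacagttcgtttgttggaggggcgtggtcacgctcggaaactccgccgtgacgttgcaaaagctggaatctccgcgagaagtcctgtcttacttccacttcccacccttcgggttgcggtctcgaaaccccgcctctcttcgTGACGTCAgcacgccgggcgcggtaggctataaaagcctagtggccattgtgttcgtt
CEBPG: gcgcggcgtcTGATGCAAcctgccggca
The E-box of ATF4 begins 82 bases before the start and the CHAC1 element, present on the opposite strand, 209 bases before it. The CEBPG element begins 42 bases before its start and the PPP1R15A element 58 bases before its own. A match describes letters only, and no binding was measured.

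**Figure D1:**
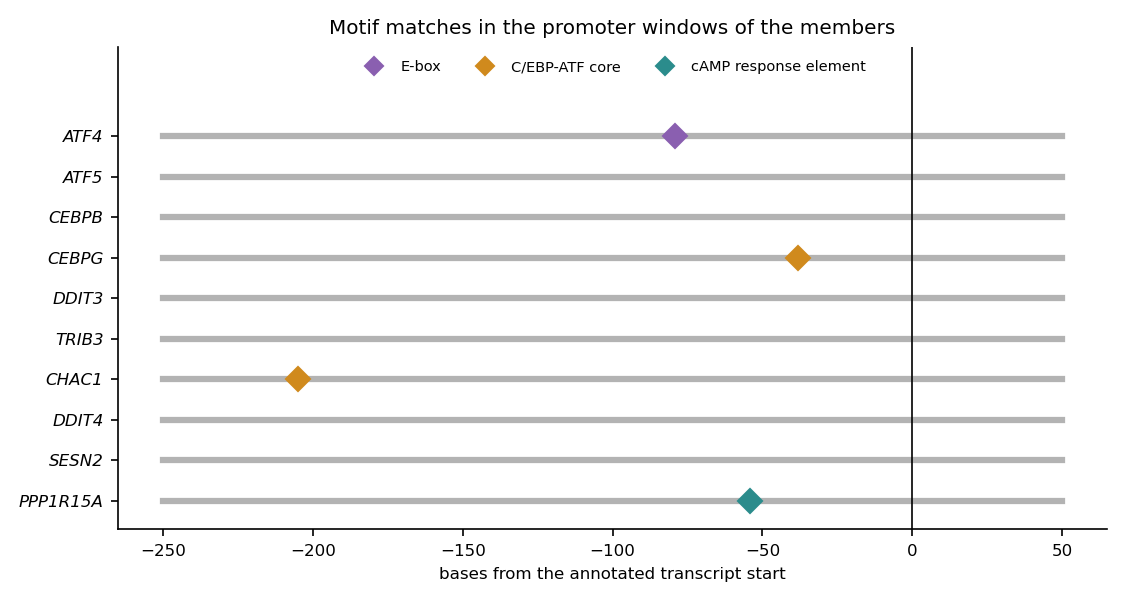
Positions of the motif matches (diamonds) along the promoter windows of the 10 members (grey bars), in bases from the annotated transcript start of the window that holds the match. Matches are seen for ATF4, CEBPG, CHAC1 and PPP1R15A.

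The arrays of the USF1 set had median log2 intensities of 6.53 to 6.55 and the arrays of the UGT1A3 pair 5.59 and 5.63, so each knockdown was read only against the control of its own set. Within a USF1 group the SD of a gene had a median of 0.05, and no 2 arrays held identical values. The 1 USF1 probe set above the limit for dim probe sets fell by 0.40 after USF1 knockdown (SE 0.08, limma adjusted p = 0.00818). Its mean went from 6.43 to 6.03, to 75.6% of the control level, not far above the limit of 5.63. No probe set was specific to UGT1A3, so the UGT1A3 knockdown could not be checked here. Of the fixed markers of this carcinoma line, KRT8, KRT18 and VIM were bright. NKX2-1 averaged 6.40 in the controls against a limit of 5.63 for dim probe sets, and KRT19, EPCAM and CDH1 were under that limit. No probe set carried TP63 as its only symbol. KRT8 rose by 0.25 after USF1 knockdown (SE 0.04, limma adjusted p = 0.00197), and its part in the results was not tested. Of 20 markers of leukocytes, endothelium, fibroblasts and alveolar or airway cells, 8 were bright enough to be tested. The brightest, CD68, averaged 9.46 in the controls, beside 9.07 for KRT8, and the others averaged 5.64 to 6.87. None of the 8 passed limma in either direction, at an unadjusted p of 0.05 as well. The RNA was bulk, so fewer expressing cells and less RNA per cell cannot be told apart. The labels name no separate cultures behind the replicates. The p-values therefore reflect no more than the spread among these samples, and that spread may be technical.

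After USF1 knockdown 8 of the 10 members fell and none rose, at an adjusted or an unadjusted p of 0.05 in limma. DDIT4 and CHAC1 fell to 54.2% and 54.7% of the control level, CEBPB, SESN2 and CEBPG to between 65.0% and 68.3%, and TRIB3, DDIT3 and ATF4 to between 78.8% and 83.5%. ATF5 and PPP1R15A did not pass. Over all 11448 tested genes 18.7% fell and 22.0% rose. The 3 knockdown arrays lay under all 3 controls in the same 8 members, against 24.6% of all tested genes. The median change of the 10 members was -0.45 on the log2 scale, beside 0.01 over all tested genes. The members were chosen with earlier results of these data known, so their shared direction is no independent evidence. Each change given is the knockdown mean less the control mean in log2 units, for the probe set of highest mean in each gene, with the moderated standard error (SE), and p-values were adjusted over all tested genes.

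ATF4, the transcription factor that drives the response, read 12.86, 12.92 and 12.90 in control cells, against 12.61, 12.60 and 12.59 after USF1 knockdown. All knockdown arrays were lower than all controls, and the spread within each group was small beside the gap. The change was -0.29 (SE 0.03, n = 3 against 3, limma adjusted p = 4.61e-04), with a 95% interval of -0.36 to -0.22. ATF4 had 1 probe set, whose suffix _x_at marks probes that may also match other sequences.

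ATF5, a close relative of ATF4 that is likewise controlled at translation, read 7.95, 7.86 and 7.92 across the 3 controls, against 8.07, 7.89 and 7.94 across the 3 knockdown arrays. The groups overlapped. The difference was 0.06 (SE 0.05, adjusted p = 0.455 in limma), with a 95% interval of -0.07 to 0.18. The other 3 ATF5 probe sets gave 0.07 to 0.08, and their groups overlapped as well. The protein-coding genes IL4I1 and NUP62 overlap ATF5 in the gene table, and how the probe sets divide between these genes was not tested.

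CEBPB, a C/EBP factor that forms dimers with ATF4 and CHOP, read 9.10, 9.00 and 8.87 in control cells, against 8.37, 8.36 and 8.36 after USF1 knockdown. The knockdown arrays were nearly identical to each other and all lay under the controls, which varied more. The change was -0.62 (SE 0.06, limma adjusted p = 3.62e-04). A noncoding gene, CEBPB-AS1, overlaps CEBPB in the gene table, and how the probe set divides between them was not tested.

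CEBPG, the small C/EBP factor that pairs with ATF4 at amino acid response genes, read 11.07, 11.10 and 11.04 across the 3 controls, against 10.57, 10.50 and 10.48 across the 3 knockdown arrays. Every knockdown array lay below every control, and the change was -0.55 (SE 0.04, limma adjusted p = 1.11e-04). Its second probe set gave 9.34, 9.42 and 9.35 in control cells and 9.18, 9.27 and 9.18 after knockdown, a smaller change of -0.16 (SE 0.04, adjusted p = 0.0225 with every probe set tested singly). Within an array the first CEBPG probe set exceeded the second by 1.68 to 1.73 in the controls and by 1.23 to 1.39 in the knockdown arrays, so the 2 probe sets changed unequally in all arrays.

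DDIT3, whose product CHOP dimerises with C/EBP proteins, read 7.25, 7.20 and 7.33 in control cells, against 6.99, 7.05 and 6.96 after USF1 knockdown. The groups did not overlap, but the gap between them was narrow, at 0.14, close to the range of 0.14 within the controls. The change was -0.26 (SE 0.04, limma adjusted p = 0.00424). The second DDIT3 probe set gave 6.99, 7.04 and 7.27 in control cells and 6.83, 6.96 and 6.81 after knockdown, without overlap, and its change of -0.24 did not pass (SE 0.08, adjusted p = 0.0531 with every probe set tested singly). DDIT3 overlaps MARS1, the methionyl-tRNA synthetase gene, which fell by 0.40 in the same arrays (SE 0.03, limma adjusted p = 3.12e-04), and how the DDIT3 probe sets divide between the 2 genes was not tested.

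**Figure D2:**
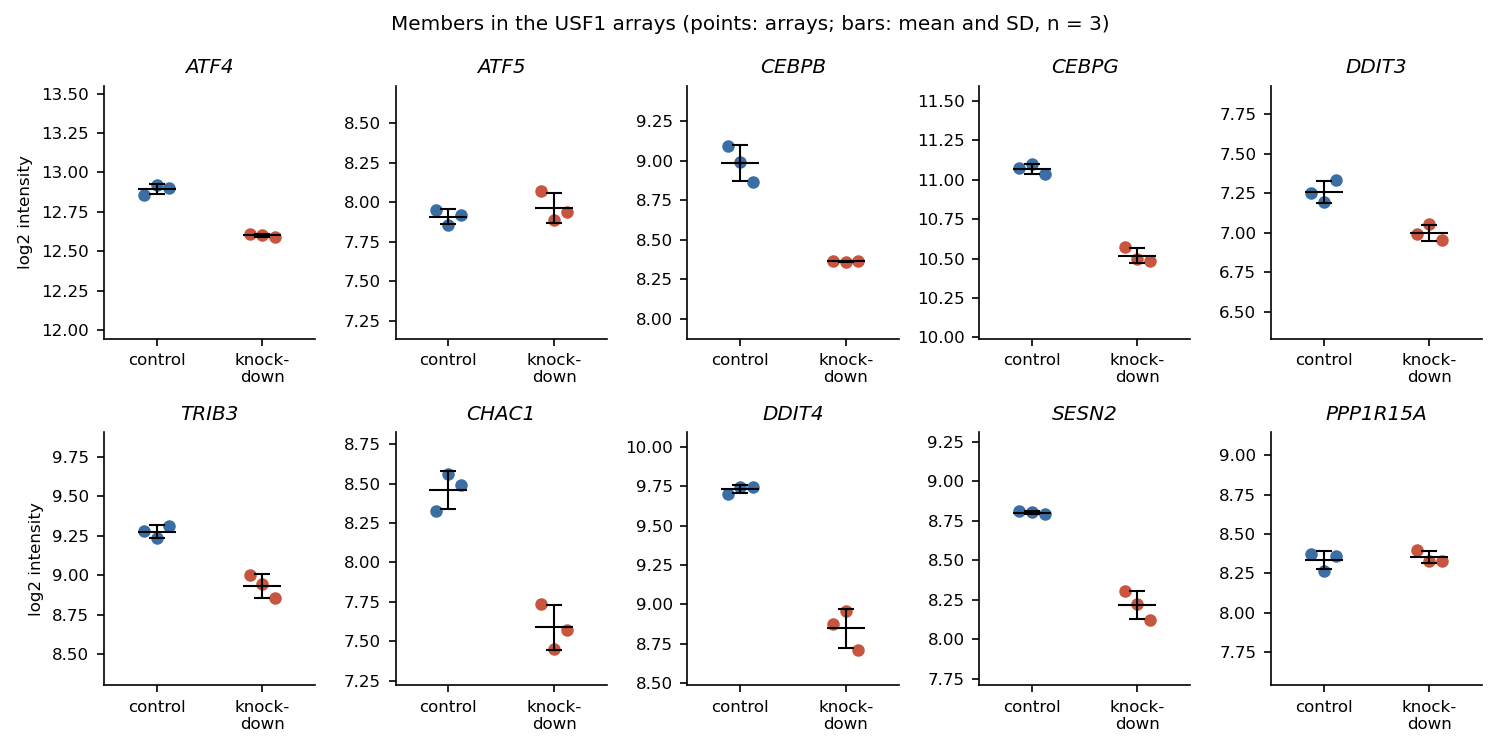
Log2 intensity of the 10 members in the 6 USF1 arrays, 1 panel per gene, each spanning 1.6 log2 units. Points are arrays and bars the mean and SD (n = 3). The groups are separate in 8 panels and overlap for ATF5 and PPP1R15A.

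Of the feedback and effector genes, TRIB3, a pseudokinase induced by CHOP and ATF4, read 9.28, 9.23 and 9.31 across the 3 controls, against 9.00, 8.95 and 8.85 across the 3 knockdown arrays. The groups were separate, and the change was -0.34 (SE 0.05, limma adjusted p = 0.0014). A second TRIB3 probe set also fell, by 0.21 (SE 0.06, adjusted p = 0.030 with every probe set tested singly), from 7.10, 7.24 and 7.29 to 7.04, 7.04 and 6.91. There the lowest control and the highest knockdown arrays lay close together.

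CHAC1, the glutathione-degrading enzyme, read 8.33, 8.56 and 8.49 in control cells, against 7.74, 7.45 and 7.57 after USF1 knockdown, a change of -0.87 (SE 0.09, limma adjusted p = 4.77e-04). Its second probe set changed by -1.10, from 6.59, 6.71 and 6.56 to 5.50, 5.75 and 5.32, to 46.8% of the control level (SE 0.10, adjusted p = 4.49e-04 with every probe set tested singly). Both showed wide gaps between the groups. In the second, 2 of the 3 knockdown arrays were dimmer than the limit of 5.63.

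DDIT4, which holds mTORC1 in check and is also induced by hypoxia, read 9.70, 9.75 and 9.74 across the 3 controls, against 8.87, 8.96 and 8.71 across the 3 knockdown arrays. The change was -0.88 (SE 0.06, limma adjusted p = 1.40e-04), with a 95% interval of -1.03 to -0.74. The gap between the groups was 0.75, and the change of DDIT4 ranked 33 from the lowest among 11448 tested genes.

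SESN2, a leucine sensor that restrains mTORC1, read 8.81, 8.80 and 8.79 in control cells, against 8.31, 8.22 and 8.12 after USF1 knockdown. The change was -0.59 (SE 0.05, limma adjusted p = 2.40e-04). Its second probe set gave -0.61, from 7.76, 7.68 and 7.83 to 7.27, 7.17 and 7.02, so both probe sets separated the groups by like amounts.

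PPP1R15A, the regulatory subunit known as GADD34, read 8.38, 8.27 and 8.36 across the 3 controls, against 8.40, 8.33 and 8.33 across the 3 knockdown arrays. The groups overlapped. The difference was 0.02 (SE 0.04, adjusted p = 0.772 in limma), with a 95% interval of -0.08 to 0.11, and its sign turned without USF1 control 2 (-0.02) and without USF1 knockdown 1 (-0.01). PPP1R15A thus lay near the median of all tested genes, with 51.7% of them changed more negatively.

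With every probe set tested singly, 12 of the 18 member probe sets fell and none rose, and in TRIB3, CHAC1, CEBPG and SESN2 both probe sets of the gene were among them. The 6 that did not pass were the 4 of ATF5, 1 of DDIT3 and that of PPP1R15A. Over all 27182 probe sets tested in this way 17.6% fell. With no dim limit the second probe sets of TRIB3 and CEBPG did not pass (limma adjusted p = 0.0733 and 0.0657). Of the 18 member probe sets 5 carry the suffix _s_at and 3 the suffix _x_at, which mark sets that may match more than 1 transcript family or share probes with other sequences.

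**Figure D3:**
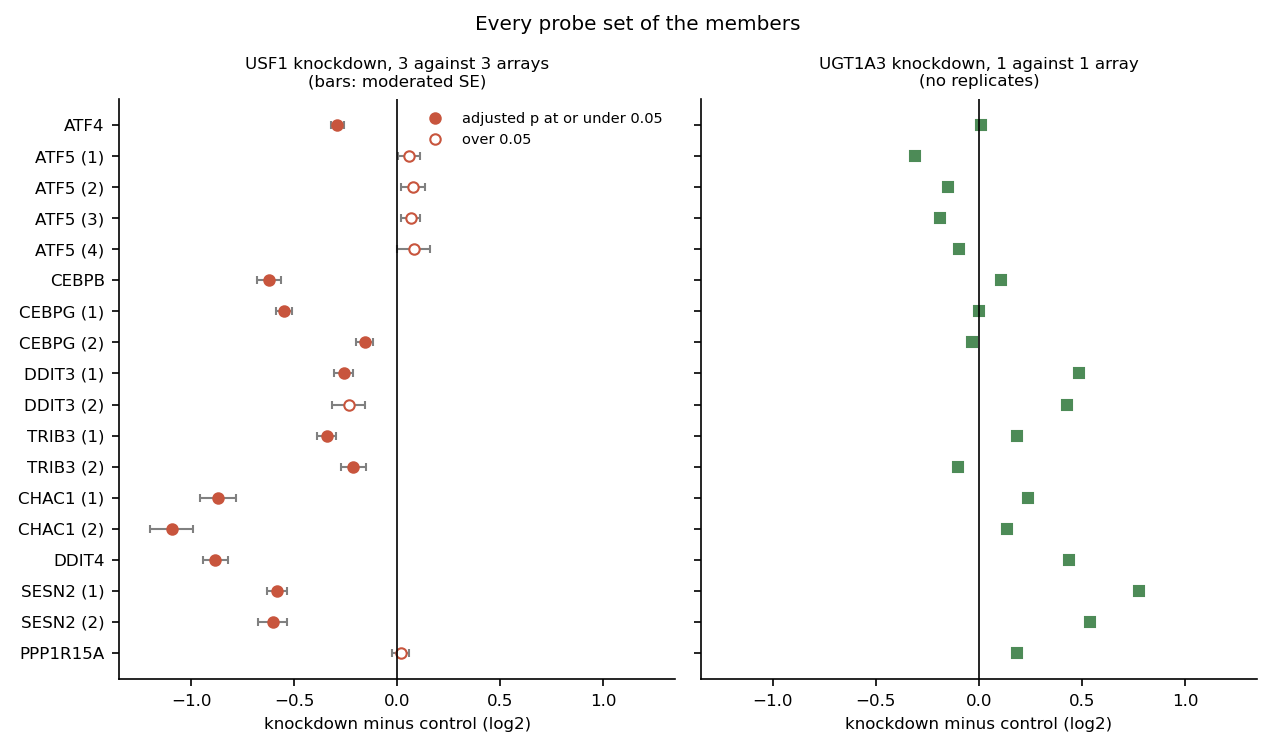
Knockdown minus control on the log2 scale for all 18 member probe sets, numbered from the brightest within a gene. Left, USF1 knockdown with moderated SE (filled, adjusted p at or under 0.05 with every probe set tested singly); right, the UGT1A3 pair without replicates. The USF1 changes lie below 0 except for ATF5 and PPP1R15A, and most UGT1A3 differences lie above 0.

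Close relatives of the members were compared next, as these often differ in how they are induced. Of 12 genes listed as paralogs 7 were bright enough to be tested, and 4 fell and 1 rose, with a median of -0.14. The shares of all tested genes that fell and rose were 18.7% and 22.0%. ATF3, a stress-induced partner of CHOP and ATF4, fell by 0.48 (SE 0.03, limma adjusted p = 1.42e-04), although its 3 bright probe sets ran from -0.48 to -0.05. TRIB1 fell by 0.46 (SE 0.04), CHAC2 by 0.23 (SE 0.04) and PPP1R15B, the constitutive counterpart of PPP1R15A, by 0.14 (SE 0.03), with limma adjusted p-values from 2.72e-04 for TRIB1 to 0.00872 for PPP1R15B. The 4 bright PPP1R15B probe sets ran from -0.14 to 0.02. SESN1, the sestrin best known as a p53 target, rose by 0.60 (SE 0.07, limma adjusted p = 7.06e-04), opposite to SESN2. CEBPD differed by 0.01 (adjusted p = 0.91 in limma) and CEBPZ by -0.06 (0.135). CEBPZ is counted in this list by its symbol, although it is not a leucine zipper factor like CEBPB and CEBPG. CEBPA, CEBPE, TRIB2, SESN3 and DDIT4L were under the limit for dim probe sets.

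Upstream of ATF4, the list of eIF2 kinases, eIF2 and its exchange factor and phosphatase had 21 tested genes. Of these 10 fell, 2 rose and 9 did not pass, with a median of -0.08, beside 18.7% of all tested genes that fell and 22.0% that rose. GCN1, the coactivator of the amino acid sensing kinase, and OMA1, the mitochondrial protease that relays stress to eIF2, fell by 0.30 each. The exchange factor subunits EIF2B5 and EIF2B1 fell by 0.24 and 0.22. The 2 genes that rose were the exchange factor subunits EIF2B4 (0.16) and EIF2B2 (0.15), named after their values were seen. The limma adjusted p-values of these 6 genes ran from 7.42e-04 to 0.00893. Of the 4 kinases, also named after their values were seen, EIF2AK1 fell by 0.12, and its 8 bright probe sets ran from -0.12 to 0.07. EIF2AK2 (PKR), EIF2AK3 (PERK) and EIF2AK4 (GCN2) differed by 0.04, -0.08 and 0.07 and did not pass.

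Downstream, 13 of 17 tested genes of amino acid transport and synthesis fell and none rose, at an unadjusted p of 0.05 as well, with a median of -0.34. The 4 with the largest changes were SLC7A11 (-1.13), SLC7A5 (-1.07), ASNS (-0.91) and PSAT1 (-0.68), which import cystine and large neutral amino acids and make asparagine and serine. The bright probe sets of SLC7A5 ran from -1.07 to -0.44 and those of SLC7A11 from -1.18 to -0.59. All 14 tested genes of tRNA charging and export fell, with a median of -0.24, against 18.7% of all tested genes that fell. CARS1, which charges cysteine tRNA, fell by 0.88 (SE 0.04, limma adjusted p = 3.31e-05), MARS1 by 0.40, GARS1 by 0.38 and AARS1 by 0.35. Both lists were drawn up with earlier results of these arrays known, so their direction is no independent evidence.

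Of 18 tested further targets of ATF4 and CHOP, 5 fell, 4 rose and 9 did not pass, with a median of -0.04. These shares were near the 18.7% and 22.0% of all tested genes that fell and rose. Besides ATF3, the glycoprotein hormone gene STC2 fell by 0.43 (SE 0.09, limma adjusted p = 0.00979). The autophagy receptor gene SQSTM1 rose by 0.40 (SE 0.03, limma adjusted p = 1.29e-04), with bright probe sets from 0.02 to 0.58, and BBC3, which encodes the death protein PUMA, rose by 0.27 (SE 0.05, limma adjusted p = 0.00367).

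The ATF6 and XBP1 arm of the unfolded protein response, which supplies chaperones to the endoplasmic reticulum, had a median change of 0.04. Of its 18 tested genes 1 fell, 5 rose and 12 did not pass, beside 18.7% of all tested genes that fell and 22.0% that rose. The number that rose was 3 without USF1 control 1 or without USF1 control 3. The co-chaperone DNAJB9 rose by 0.29 (SE 0.05), the degradation adaptor SEL1L by 0.22 (SE 0.03) and EDEM1 by 0.15 (SE 0.03), whose bright probe sets ran from -0.11 to 0.15. XBP1 fell by 0.25 (SE 0.03). In limma these 4 had adjusted p-values of 0.0017 for XBP1 to 0.012 for EDEM1. No test compared the arms with each other.

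**Figure D4:**
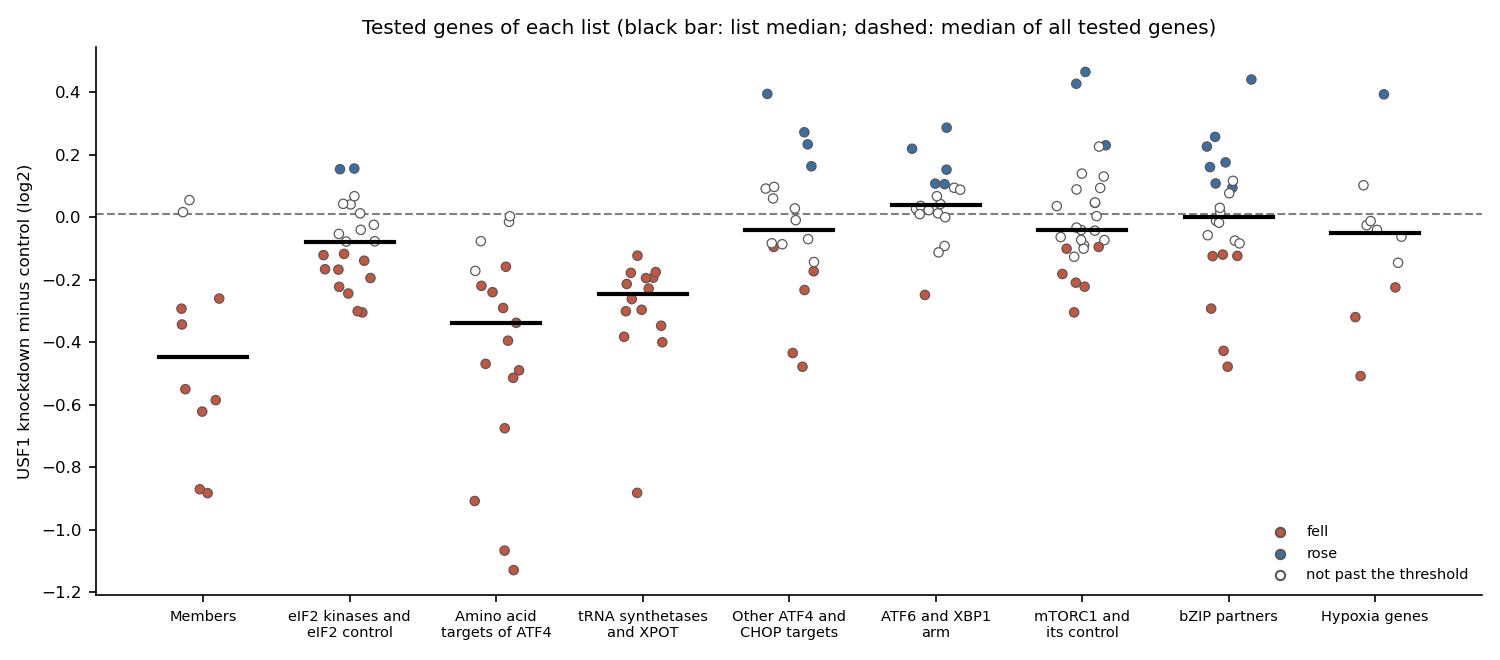
Change after USF1 knockdown (log2) of each tested gene of the members and 8 lists. Filled points passed the threshold, black bars are list medians and the dashed line is the median of all tested genes, 0.01. The members and the amino acid and tRNA lists lie mostly below the line, with medians of -0.45, -0.34 and -0.24, and the ATF6 and XBP1 arm has a median of 0.04. Members and lists were chosen with earlier results of these data known.

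As DDIT4 and SESN2 act on mTORC1, the genes of that complex and its control were read in the same arrays. Of 27 tested genes 6 fell, 3 rose and 18 did not pass, with a median of -0.04. Among all tested genes 18.7% fell and 22.0% rose. CASTOR1, an arginine sensor, rose by 0.47 (SE 0.09), the Rag GTPase gene RRAGC by 0.43 (SE 0.04) and FNIP1, a partner of folliculin, by 0.23 (SE 0.03). MIOS, a subunit of the complex that SESN2 binds, fell by 0.30 (SE 0.03, limma adjusted p = 4.61e-04). The count that fell was 2 without USF1 control 1 or control 3, and 3 without USF1 knockdown 1 or knockdown 3. The count that rose was 5 without USF1 control 2 or without USF1 knockdown 3.

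A list around the hypoxic control of DDIT4 held the hypoxia factor genes HIF1A and EPAS1 and genes induced by hypoxia. Of its 10 tested genes 3 fell and 1 rose, with a median of -0.05, beside 18.7% and 22.0% of all tested genes. When the probe sets of each gene were averaged, 1 fell and 2 rose. VEGFA, which encodes a vessel growth factor, fell by 0.51 (SE 0.03, limma adjusted p = 6.40e-05), PDK1 by 0.32 and ANKRD37 by 0.22. VEGFA had 10 bright probe sets, with changes from -0.64 to -0.03. BNIP3L rose by 0.39 (SE 0.04, limma adjusted p = 7.42e-04).

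The basic leucine zipper factors that can pair with ATF4, CHOP or C/EBP proteins had a median of 0.002. Of 22 tested genes 6 fell, 7 rose and 9 did not pass, where 18.7% of all tested genes fell and 22.0% rose. Besides ATF3, MAFF fell by 0.43 (SE 0.04) and BATF3 by 0.29 (SE 0.04), and the circadian factor gene DBP rose by 0.44 (SE 0.03, limma adjusted p = 1.37e-04). The counts for this list changed when single arrays were left out. Without USF1 control 1, control 2 or control 3 the number that rose was 2, 3 and 2, and without USF1 knockdown 1 it was 2. The number that fell was 3 without USF1 control 1 or control 2, and 4 without USF1 knockdown 2.

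The UGT1A3 pair addresses the same genes after a hairpin transfection against a different target, whose loss could not be checked. There the members did not show the falls seen in the USF1 set. With 1 array per group there was no test, and the values describe 2 arrays. SESN2 went from 6.89 on the control array to 7.66 after knockdown, 1.71-fold higher, and was the only member at least 1.5-fold apart, as were 2.15% of the 11620 genes above the limit in the upward and 1.41% in the downward direction. Its second probe set read 6.32 and 6.86, a difference of 0.54. Of the genes above the limit 99.4% had a lower difference than SESN2.

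DDIT3 went from 7.04 in the UGT1A3 control to 7.53, a difference of 0.48, and its second probe set gave 0.43. DDIT4 read 8.98 and 9.42, a difference of 0.44. Both lay in the upper range of this pair, where 96.1% and 94.7% of genes had lower differences. The remaining members were closer to their control. CHAC1 differed by 0.24, PPP1R15A and TRIB3 by 0.18 each, CEBPB by 0.11 and ATF4 by 0.01, while CEBPG read 9.54 on both arrays. The second TRIB3 probe set differed by -0.10, against the first. ATF5 was lower by 0.31, and its other 3 probe sets were lower by 0.10 to 0.19.

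In all, 8 members were higher, 1 was lower and 1 was level in the UGT1A3 knockdown array, where 52.1% of all genes were higher. When each array was centred on its median, the sign of ATF4 turned negative, at -0.02, and CEBPG moved from level to -0.03. The median difference of the members was 0.18, beside 0.02 over all genes. Of the related genes, TRIB1 was higher by 0.61 and CHAC2 lower by 0.61, the cystine importer SLC7A11 was higher by 0.25 and SLC7A5 lower by 0.61. JUN, an immediate early factor, was higher by 0.71 and BBC3 by 0.67. The amino acid and tRNA lists had medians of -0.07 each in this pair, and none of the 14 tRNA genes and 1 of the 17 amino acid genes was at least 1.5-fold apart. The 2 knockdowns were not compared by a test, because the UGT1A3 pair has no replicates and its arrays have another intensity scale.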

How the data were processed

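The deposited values are log2 intensities per probe set, with the log base read from their range. MAS5 is named without role or version per the submitters' processing notes, and how arrays were scaled to each other is not stated there. Of 49395 probe sets, 102 controls were left out. Gene symbols came from the platform annotation, updated by Entrez number through a GRCh38.p14 gene table (44961 matched), and 1832 probe sets with several symbols and 2473 with none named no gene. A gene was its probe set of highest mean, and genes dimmer than the 40th percentile of all probe sets' means (5.63 in the USF1 arrays, 4.76 in the UGT1A3 pair) were left out. All 10 members and 18 probe sets passed. The USF1 comparison used limma 3.58.1 (lmFit, eBayes, R 4.3.3) over 11448 genes, two-sided, with Benjamini-Hochberg adjustment and a threshold of 0.05, without a replicate block. The UGT1A3 pair had no test.

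The members and lists were chosen with earlier results of these data known. List genes were named by size of change among those past the threshold, at most 4 per list, and in the UGT1A3 pair at most 2 per list at least 1.5-fold apart. The rule let paralogs and targeted genes be named whatever their values. The carcinoma markers were named to check the labelled cell type. SLC7A11 in that pair and the genes so marked were named after their values were seen. Simulated arrays modelled on the USF1 comparison (11448 genes, 50 changed at each of 4 fold sizes) tested the fit: 9 of the genes changed 1.1-fold were called, 41 of those at 1.25-fold, 46 of those at 1.5-fold and all 50 at 2-fold, and 15 of 161 calls were false. The number of arrays limits the precision. The alternatives were other scalings, dim limits, pseudocount, summary of probe sets, prior, a replicate block and leaving out each USF1 array.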

Additional observations from a re-analysis of the deposited data

Results flagged for a closer look

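SESN2 was singled out because its 2 differences had opposite directions and the UGT1A3 difference was at least 0.5 in size. DDIT4, CHAC1, CEBPB, TRIB3, DDIT3 and ATF4 also fell in the USF1 set and were higher in the UGT1A3 pair, by 0.01 to 0.48. For SESN2 all 3 USF1 knockdown arrays lay under all 3 controls, with a change of -0.59 on the log2 scale. The UGT1A3 knockdown array lay above its control by 0.77. The difference between the 2 knockdowns was not tested, since the UGT1A3 pair has 1 array per group. Groups of 3 arrays were too small for a search for outlying samples.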

How the results depend on the processing

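All 8 members that fell after USF1 knockdown kept their direction and passed in each of 15 alternatives in which they were tested. When the 60th percentile served as dim limit 7 of 10 fell, because DDIT3 was under that limit and not tested. ATF5 and PPP1R15A passed in none, and none of the members rose. Without 1 USF1 array the count of members that fell was 8 each time, the member probe sets that fell numbered 10 to 13, and 3644 to 4365 genes passed in all, of 4657. With no dim limit 3644 genes passed and 10 member probe sets fell. With the 60th percentile as dim limit 9 member probe sets fell. PPP1R15A reversed to -0.0169 without USF1 control 2 and to -0.00522 without USF1 knockdown 1, and neither passed; over all arrays left out singly it ran from -0.0169 to 0.0376. With its probe sets averaged CEBPG changed by -0.35 in place of -0.55. The 3 scalings kept the median change of all genes between 0.01 and 0.02.

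The replicate number was also entered as a replicate block. The deviations of same-numbered arrays from their group means had correlations of -0.10, 0.20 and 0.09. For differently numbered arrays they ran from -0.27 to 0.19. These values show no clear pairing by number, and with 3 arrays per group they cannot exclude one. With the block 8 members fell, 11 member probe sets fell and 4233 genes passed. The block left 3 bZIP and 3 ATF6 genes that rose and 3 mTORC1 genes that fell.

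The alternatives for the pathway lists were chosen after seeing the data. The amino acid list had 13 to 14 genes that fell and the tRNA list 14 in each. Counts of the bZIP, mTORC1 and ATF6 lists moved by more than 1.5 times in several: with no dim limit 3 bZIP genes fell and 2 rose, 2 mTORC1 genes fell and 3 ATF6 genes rose. Averaging the probe sets of a gene left 2 paralogs that fell, and 8 further targets fell with a trended, robust prior. In the UGT1A3 pair SESN2 remained the 1 member at least 1.5-fold apart in all 6 alternatives, at 0.66 to 0.77.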
